A study of Mus musculus with 6 samples.

Results

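The collagen genes were taken as every row of the deposited table whose symbol has the form Col, a number, the letter a and a number; 41 of 20033 genes in all met that rule. They comprised 11 fibrillar chains, 6 chains of basement membrane collagen IV, 8 fibril-associated chains (FACITs), 6 chains of collagen VI and 10 chains of other types. Each of the 6 libraries is labelled as the mesonephros of 1 male mouse embryo at E12.5. The mesonephros is the transient embryonic kidney, made of tubules, mesenchyme and the Wolffian duct, the forerunner of the epididymis and vas deferens. The 3 knockout embryos are given as Wnt9b-/-, a knockout in all tissues of a Wnt ligand that the duct epithelium secretes. The 3 controls are heterozygous in the genotype label and Wnt9b+/+ in the design text; strain, litter and the deleted part of the gene are not given. No treatment is labelled in either group.

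Collagens are secreted proteins whose chains wind around each other in a rod-like helix, with glycine at regular intervals. Fibrillar chains form the tension-bearing fibrils of connective tissue, FACITs sit on the surface of such fibrils, collagen IV builds the sheet of the basement membrane under epithelia and around vessels, and collagen VI forms beaded filaments between cells and matrix. In the embryonic kidney, mesenchymal cells make most fibrillar collagen, and the ducts and tubules are each wrapped in a collagen IV sheet.

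Whole reads recovered from the deposited values came to between 28687415 and 32064834 per knockout library and between 29061367 and 33574278 per control library, as lower bounds. Wnt9b was at 23.4, 19.2 and 19.0 TPM in the knockout libraries, against 24.9, 26.4 and 34.0 TPM in the controls (log2 difference -0.44, SE 0.139, limma adjusted p = 0.266). Its log2 fold change is -0.45 (adjusted p = 0.0263) in the authors' deposited table. The knockouts lay below the controls but kept 0.723 times their mean; since the deleted part is not given and a gene-level value can include transcripts left by a partial deletion, this level does not settle the labels. The tissue markers Pax2, Gata3, Osr1, Tcf21 and Wt1 were above 1 TPM in each library. The summed TPM of 11 measured genes of the gonadal soma, the tissue next to the mesonephros, was 207, 170.1 and 111 in the knockout libraries and 80.4, 65.0 and 62.4 in the control libraries. This sum did not overlap between the groups, and its part in the collagen results was not tested beyond the values given beside them. In bulk tissue, fewer cells of a type and less RNA per cell cannot be told apart.

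Collagen transcripts were abundant in these mesonephroi. Values are TPM, which is corrected for gene length and for library size, so levels of different chains can be set side by side. The 41 genes summed to 4121, 4350.2 and 4613 TPM in knockouts 1 to 3, and to 4713, 4865 and 5190.4 TPM in controls 1 to 3. The knockout sums thus lay below each control sum, at 0.886 times the control mean. Among all 20033 genes, Col3a1 ranked 99th, Col1a1 ranked 130th and Col1a2 ranked 226th by mean TPM. Those 3 chains carried 48.8% of all collagen TPM. Averaged over the 6 libraries, 12 collagen genes exceeded 100 TPM, 16 lay between 10 and 100 TPM and 8 between 1 and 10 TPM. Col4a3, Col5a3, Col6a4 and Col6a5 averaged under 1 TPM in both groups, Col17a1 in knockouts alone and Col8a1 in controls alone.

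**Figure D1:**
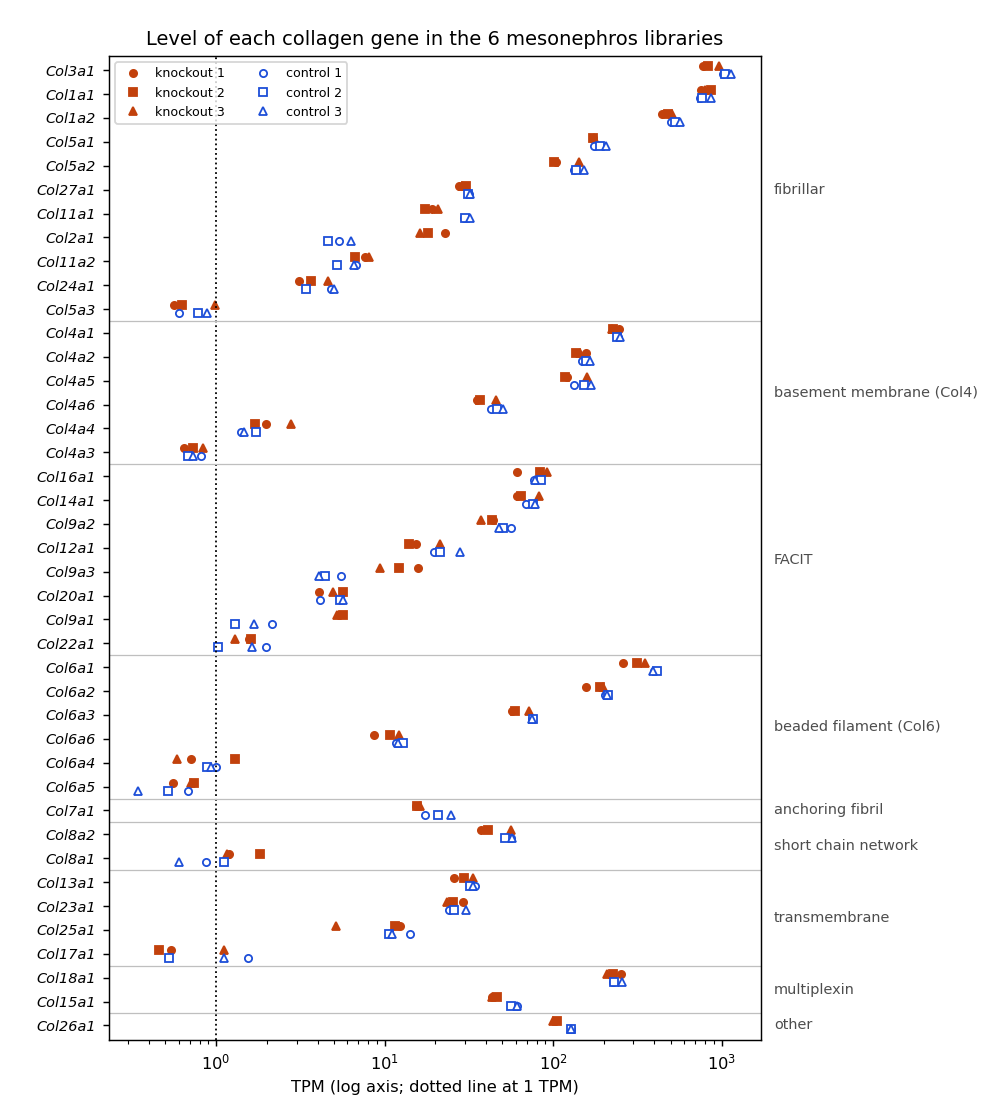
TPM of the 41 collagen genes (log axis) in the 3 knockout libraries (filled) and the 3 control libraries (open), grouped by class, with a dotted line at 1 TPM. Col2a1, Col9a1 and Col9a3 stand to the right in knockouts, while most abundant chains stand slightly to the left.

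In the knockouts, Col2a1 and Col9a1 rose and Col11a1 fell, while the other 34 of the 37 tested collagen genes did not pass the test. The test was limma on log2(TPM + 1), on the 17577 genes that reached 1 TPM in 3 or more libraries, and called an adjusted p under 0.05. It called 2 collagen genes higher, where 0.131% of all tested genes were called higher, and 1 lower, where 0.313% of all tested genes were called lower (0.444% in either direction). In the authors' deposited table, 3 collagen genes were higher (Col2a1, Col9a1 and Col9a3) and 7 were lower (Col11a1, Col15a1, Col26a1, Col3a1, Col6a1, Col7a1 and Col12a1) at an adjusted p under 0.05. The background in the authors' deposited table was 1.38% higher and 2.17% lower, 3.55% together, among genes with an adjusted p. The log2 difference was below 0 for 30 of 37 tested collagen genes (81.1%), against 51.8% of all tested genes. Their median was -0.18, against -0.0075 over all tested genes. In 10 of 37 the knockout libraries all lay below the controls, where 8.49% of all tested genes did so, and in 4 of 37 they all lay above, where 8.14% did so. At an unadjusted limma p under 0.05, 3 collagen genes were higher and 9 lower, against 5.35% and 5.92% of all tested genes. All chains were read in the same 6 libraries, so these counts are not independent: knockout 3 was the highest knockout for 21 of the 37 genes and control 3 the highest control for 20. Without knockout 3, the test called 6 collagen genes lower and 3 higher, where 0.839% and 0.561% of all tested genes were called. Without knockout 1, knockout 2, control 1 or control 3 it called 0 lower and 1 higher, and without control 2 it called 0 in either direction. In these fits, in the order named, 0.15%, 0.104%, 0.11%, 0.0694% and 0.0579% of all tested genes were called lower. The shares called higher were 0.0231%, 0.0231%, 0.052%, 0.0116% and 0.0174%. Fewer genes of any kind passed in those fits: the genes called among all tested numbered 30, 22, 28 and 14 without knockout 1, knockout 2, control 1 and control 3, and 13 without control 2, against 78 with all libraries.

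**Figure D2:**
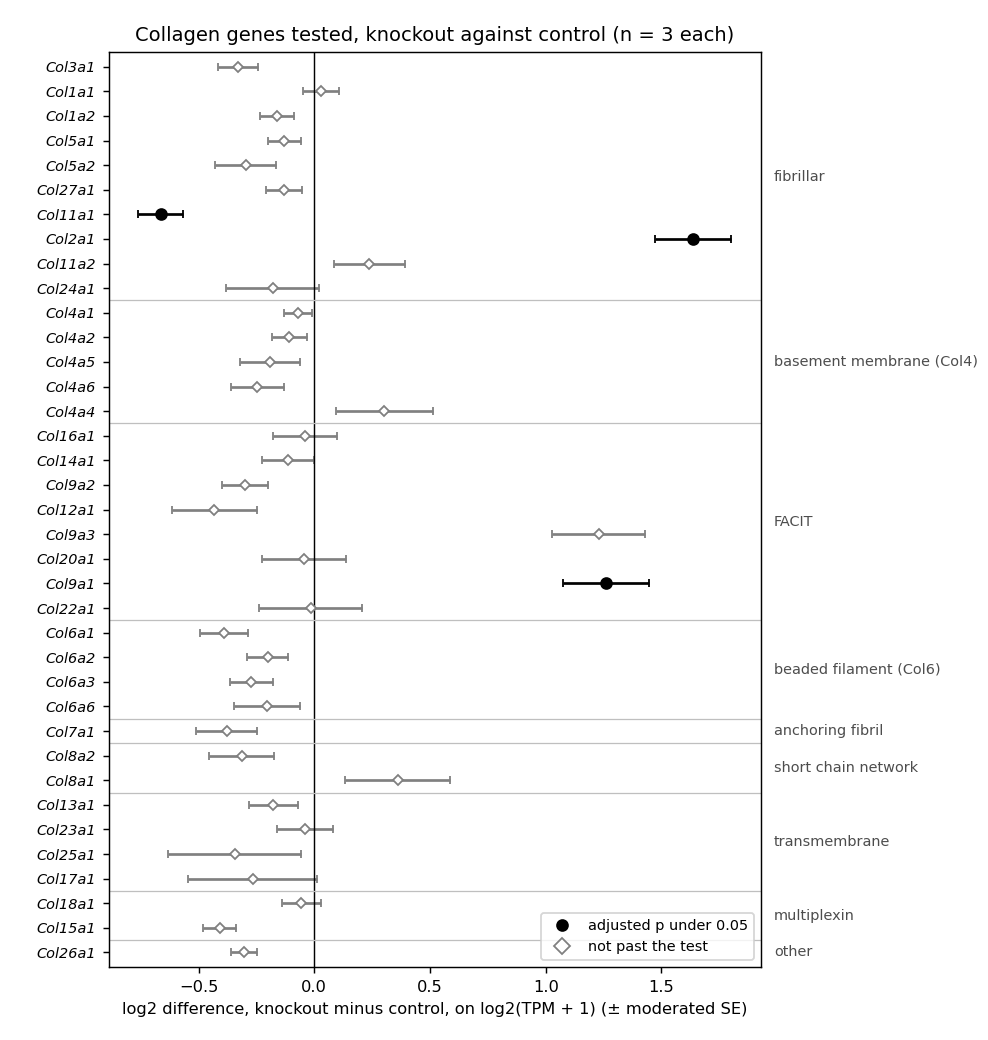
Log2 differences of knockout minus control on the log2(TPM + 1) scale, with moderated standard errors, for the 37 collagen genes tested (n = 3 libraries per group). Filled circles mark the 3 genes past the test; Col2a1 and Col9a1 lie to the right, Col11a1 to the left, and 30 genes lie left of 0.

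The summed TPM by class showed which chains carried the level. Fibrillar chains summed to 2342, 2519.8 and 2659 TPM in the knockout libraries and 2655, 2747 and 3015 TPM in the control libraries, and the groups overlapped through knockout 3 and control 1. Collagen VI summed to 484, 576 and 635 TPM in knockouts and 688, 719 and 691 TPM in controls, with no overlap, at 0.809 times the control mean. Collagen IV summed to 553 ± 29.5 TPM in knockouts and 601 ± 32.9 TPM in controls (SD, n = 3 each). The FACIT sum was 231 ± 22.2 TPM in knockouts and 242 ± 5.33 TPM in controls. Sums over chosen genes were not tested. As a share of all collagen TPM, fibrillar chains held 56.8% to 57.9% in knockouts and 56.3% to 58.1% in controls, and these ranges overlapped.

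**Figure D3:**
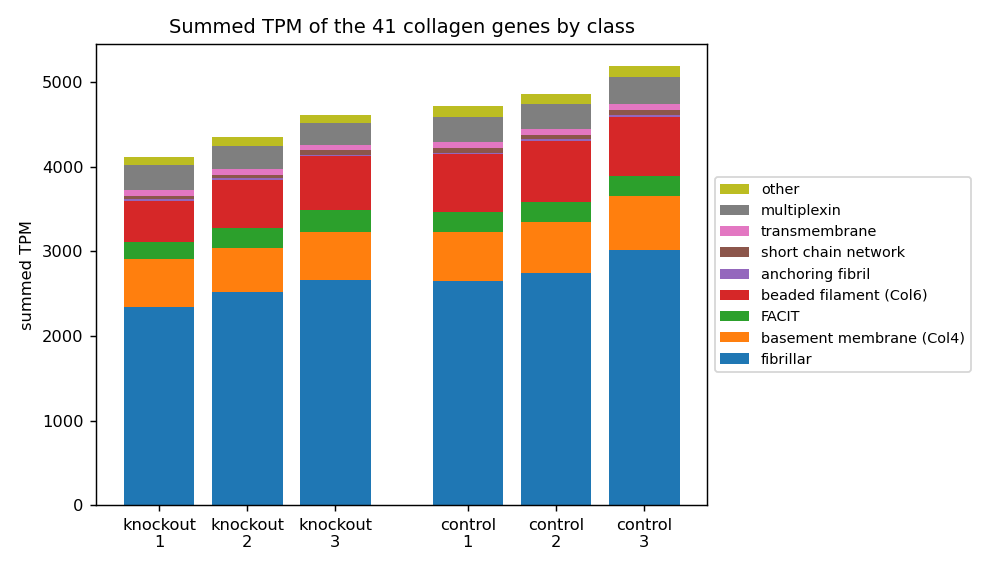
Summed TPM of the 41 collagen genes in each library, stacked by class, knockouts left and controls right. The knockout bars reach 4121 to 4613 TPM and the control bars 4713 to 5190.4 TPM, with fibrillar chains as the largest part of each.

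Among the fibrillar chains, Col2a1 (ENSMUSG00000022483), the single chain of collagen II and the main fibril protein of cartilage, was at 22.9, 18.0 and 16.3 TPM in the knockout libraries, against 5.33, 4.64 and 6.34 TPM in the controls. The lowest knockout value lay far above the highest control value. The means were 19.1 ± 3.4 TPM in knockouts and 5.43 ± 0.855 TPM in controls (SD, n = 3 each), a 3.51-fold ratio (log2 difference 1.64, SE 0.165, limma adjusted p = 0.00858). The authors' deposited table lists 1.82 for its log2 fold change (adjusted p = 2.96e-31). Behind these values stood at least 1944, 1399 and 1263 reads in knockouts and 479, 354 and 470 reads in controls. Transcripts of collagens II and IX are also known from the developing mouse testis. Col2a1 kept its call without each library in turn except control 2, where the adjusted p was 0.0532.

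Col11a1 (ENSMUSG00000027966, chromosome 3), a chain of collagen XI that nucleates thin fibrils and limits their width, fell. It was at 19.0, 17.3 and 20.7 TPM in the knockout libraries, against 29.8, 29.8 and 32.3 TPM in the controls. The lowest control lay well above the highest knockout, and the ratio of means was 0.620 (log2 difference -0.66, SE 0.0967, limma adjusted p = 0.0337). In the authors' deposited table its log2 fold change is -0.68 (adjusted p = 2.05e-12). Col11a2, its partner in cartilage collagen XI, was at 7.62, 6.71 and 8.04 TPM in the knockout libraries, against 6.79, 5.21 and 6.58 TPM in the controls, and did not pass the test (log2 difference 0.24, SE 0.153, limma adjusted p = 0.629). The Col11a1 call was lost without knockout 1, knockout 2, control 1, control 2 and control 3 (adjusted p = 0.111, 0.133, 0.0985, 0.16 and 0.162), while its log2 difference stayed between -0.72 and -0.60. It was also lost without the mean-variance trend of the test (adjusted p = 0.0869). The promoter window of Col11a1, printed because Col11a1 is the fibrillar chain that fell, is GC-rich (62.3% G or C).
Col11a1 (chr3:114030290-114030589, plus strand): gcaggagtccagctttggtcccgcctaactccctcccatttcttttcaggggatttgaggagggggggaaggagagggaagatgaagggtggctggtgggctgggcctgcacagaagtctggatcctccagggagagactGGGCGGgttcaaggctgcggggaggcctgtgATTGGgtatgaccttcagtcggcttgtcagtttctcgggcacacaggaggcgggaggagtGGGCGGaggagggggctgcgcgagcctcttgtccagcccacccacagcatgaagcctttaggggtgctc
This and the other windows are RefSeq sequences of build GRCm38.p6, matched by symbol, 5′ to 3′, from 250 bases before to 50 bases after the start site; 32 of the 41 genes matched. Capitals mark GGGCGG (the GC box of Sp1), CCAAT (the CCAAT box), TATAAA (the TATA box), CTTTGA (a TCF/LEF core) and ACAATG (a SOX core) on either strand. No motif contains another. The Col11a1 window holds 2 GC boxes and 1 CCAAT box. Over all 32851 promoter windows, 35.7% hold the GC box, 37.4% the CCAAT box, 13.6% the TATA box, 16.0% the TCF/LEF core and 12.6% the SOX core. Col2a1 and Col9a3 matched no window, so the counts for collagens leave them out. Of the 35 collagen windows, 23 hold the GC box, 13 the CCAAT box, 4 the TATA box, 8 the TCF/LEF core and 0 the SOX core. These matches are letters in short windows and describe no binding.

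The chains of the common interstitial fibrils were far more abundant. Col3a1, the single chain of collagen III in soft, distensible tissue, was at 781, 830.1 and 961 TPM in the knockout libraries, against 1026, 1055 and 1140.0 TPM in the controls. Every knockout lay below every control, but the test was not passed (log2 difference -0.33, SE 0.0874, limma adjusted p = 0.193); the authors' deposited table lists -0.32 for its log2 fold change (adjusted p = 0.00327). Without knockout 3, limma's adjusted p for Col3a1 was 0.0441. Col1a1, the main chain of collagen I of skin, bone and tendon, was at 759, 861 and 795 TPM in the knockout libraries, against 743, 761 and 863 TPM in the controls, with full overlap (log2 difference 0.030, SE 0.079, limma adjusted p = 0.924); its log2 difference was -0.020 without knockout 2 and -0.011 without control 1. Col1a2, the other chain of collagen I, was at 446, 478 and 505 TPM in the knockout libraries, against 499, 530.2 and 569 TPM in the controls (log2 difference -0.16, SE 0.073, limma adjusted p = 0.466), with knockout 3 above control 1. Among these abundant chains, only Col3a1 thus separated the groups.

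Markers of the mesonephric mesenchyme also differed. Of the 8, 1 was higher and 2 were lower, where 0.131% of all tested genes were called higher and 0.313% lower. Pdgfrb, a growth factor receptor of mesenchyme and pericytes, was at 145, 153 and 154 TPM in the knockout libraries, against 212, 233 and 242 TPM in the controls (log2 difference -0.60, SE 0.0681, limma adjusted p = 0.0137). Hand2, a mesenchymal transcription factor, was at 49.8, 47.1 and 39.5 TPM in the knockout libraries, against 68.5, 69.2 and 71.4 TPM in the controls (log2 difference -0.61, SE 0.0932, limma adjusted p = 0.0382). Both fell, while Tcf21, another such factor, rose. Tcf21 was at 312, 306 and 268 TPM in the knockout libraries, against 186, 205 and 182 TPM in the controls (log2 difference 0.62, SE 0.0793, limma adjusted p = 0.0197). The 8 markers summed to 929.6, 921 and 875 TPM in knockouts and 853, 925 and 923 TPM in controls, with overlap. Their part in the fibrillar collagen levels was not tested.

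Collagen V chains start the assembly of collagen I fibrils. Col5a1 averaged 174 ± 1.41 TPM in knockouts and 190.3 ± 16.3 TPM in controls (log2 difference -0.13, SE 0.0714, limma adjusted p = 0.572). Col5a2 was at 104, 101 and 143 TPM in the knockout libraries, against 133, 136 and 153 TPM in the controls, where knockout 3 stood apart from the other knockouts (log2 difference -0.30, SE 0.132, limma adjusted p = 0.454; adjusted p = 0.0447 without knockout 3). Col27a1, a fibrillar chain of developing cartilage and epithelia, averaged 28.9 ± 1.31 TPM in knockouts and 31.7 ± 0.494 TPM in controls with no overlap, but did not pass (log2 difference -0.13, SE 0.078, limma adjusted p = 0.60). Col24a1 averaged 3.78 ± 0.75 TPM in knockouts and 4.42 ± 0.891 TPM in controls. The 10 fibrillar genes tested held 1 higher, 1 lower and 8 uncalled genes, with a median log2 difference of -0.15. The shares over all tested genes were 0.131% higher and 0.313% lower.

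No collagen IV chain passed the test, and none was called in the authors' deposited table. Col4a1 and Col4a2, which together form the common network of all basement membranes, are neighbours read outward from a shared promoter. Col4a1 was at 247, 226 and 224 TPM in the knockout libraries, against 244, 238 and 249 TPM in the controls (log2 difference -0.071, SE 0.0607, limma adjusted p = 0.727). Col4a2 was at 157, 137 and 144 TPM in the knockout libraries, against 149, 156 and 166 TPM in the controls (log2 difference -0.11, SE 0.0735, limma adjusted p = 0.653). The groups overlapped for both chains. Their windows are shown because the pair kept a steady ratio across the 6 libraries: the start sites lie 21 bases apart and the windows share 78 bases.
Col4a1 (chr8:11312777-11313076, minus strand): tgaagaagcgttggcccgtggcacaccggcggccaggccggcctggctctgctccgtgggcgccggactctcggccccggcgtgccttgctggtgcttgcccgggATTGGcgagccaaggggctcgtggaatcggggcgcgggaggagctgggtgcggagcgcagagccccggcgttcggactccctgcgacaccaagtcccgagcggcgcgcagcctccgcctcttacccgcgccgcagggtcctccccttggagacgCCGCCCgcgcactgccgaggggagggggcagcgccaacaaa
Col4a2 (chr8:11312555-11312854, plus strand): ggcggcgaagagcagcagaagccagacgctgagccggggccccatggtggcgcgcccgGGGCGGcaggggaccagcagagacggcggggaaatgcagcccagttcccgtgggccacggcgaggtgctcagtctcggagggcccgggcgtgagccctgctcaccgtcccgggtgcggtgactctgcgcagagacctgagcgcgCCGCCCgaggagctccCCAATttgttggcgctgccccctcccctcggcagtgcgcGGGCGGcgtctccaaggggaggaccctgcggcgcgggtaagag
The Col4a1 window is 74.0% G or C and the Col4a2 window 73.7%. Neither holds the TATA box, the TCF/LEF core or the SOX core. The Col4a1 window holds 1 GC box and 1 CCAAT box and the Col4a2 window 3 GC boxes and 1 CCAAT box. The GC box of the Col4a1 window lies in the shared bases and is also 1 of the 3 counted for Col4a2. The strand setting of the authors' counting is not given, so reads from the few overlapping first bases cannot be assigned.

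Col4a5, a chain of kidney and other epithelial basement membranes, was at 121, 118 and 159 TPM in the knockout libraries, against 133, 153 and 167 TPM in the controls (log2 difference -0.19, SE 0.128, limma adjusted p = 0.641). Its neighbour and partner Col4a6 averaged 39.3 ± 5.65 TPM in knockouts and 46.6 ± 4.04 TPM in controls (log2 difference -0.25, SE 0.114, limma adjusted p = 0.477). In both genes knockout 3 lay inside the control range and the other knockouts below it. Col4a4, a chain of the mature glomerular membrane, was low, at 1.98, 1.69 and 2.8 TPM in the knockout libraries, against 1.41, 1.73 and 1.47 TPM in the controls, and overlapped between groups. Its neighbour Col4a3 did not exceed 0.838 TPM in knockouts and 0.815 TPM in controls. Of the podocyte list, whose cells secrete the Col4a3 and Col4a4 chains in the mature kidney, 5 of 6 genes were measured, 4 of them tested, and the 5 summed to 254, 235 and 296 TPM in knockouts and 228, 255 and 287 TPM in controls, with 0 past the test. Among the 7 endothelial markers, the sum was 321, 346 and 372 TPM in knockouts and 424, 391 and 414 TPM in controls, without overlap. None passed limma, though the log2 difference was below 0 for all 7, against 51.8% of all tested genes. The authors' deposited table calls 2 of them lower, Kdr (adjusted p = 0.00199) and Cdh5 (adjusted p = 0.0359). The background there was 2.17% lower. The part of this sum in the levels of vessel-associated chains was not tested.

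Among the FACITs, 1 of 8 tested genes was higher, 0 were lower and 7 did not pass, with a median log2 difference of -0.043. Of all tested genes, 0.131% were called higher and 0.313% lower. Col9a1 (ENSMUSG00000026147, chromosome 1) encodes 1 of the chains of collagen IX, which coats collagen II fibrils in cartilage and occurs in the eye. It was at 5.38, 5.66 and 5.23 TPM in the knockout libraries, against 2.15, 1.29 and 1.67 TPM in the controls. The knockout libraries agreed closely with each other, and the lowest of them exceeded the highest control by over 2-fold. The ratio of means was 3.18 (log2 difference 1.26, SE 0.184, limma adjusted p = 0.0337). In the authors' deposited table its log2 fold change is 1.67 (adjusted p = 5.41e-09). At least 251, 241 and 222 reads in knockouts and 106, 54 and 68 reads in controls stood behind these values, so counting error is larger here than for Col2a1. The Col9a1 call was lost without knockout 1, knockout 2, control 1, control 2 and control 3 (adjusted p = 0.117, 0.154, 0.0664, 0.155 and 0.144), with a log2 difference of 1.15 to 1.38. With a pseudocount of 0.1 and no filter on low values the adjusted p was 0.0538.

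Col9a1 is known to have an upstream start, used in cartilage, and a downstream start that gives a shorter chain, used in the cornea. Windows at both RefSeq starts are shown because the gene-level TPM adds the transcripts of both and cannot tell which start the knockout libraries used.
Col9a1 upstream (chr1:24177360-24177659, plus strand): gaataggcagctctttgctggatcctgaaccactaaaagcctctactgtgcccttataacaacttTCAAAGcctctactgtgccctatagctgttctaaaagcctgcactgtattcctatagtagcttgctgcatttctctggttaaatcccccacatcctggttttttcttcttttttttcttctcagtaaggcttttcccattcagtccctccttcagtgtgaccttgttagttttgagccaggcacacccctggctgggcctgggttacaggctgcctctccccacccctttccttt
Col9a1 downstream (chr1:24194953-24195252, plus strand): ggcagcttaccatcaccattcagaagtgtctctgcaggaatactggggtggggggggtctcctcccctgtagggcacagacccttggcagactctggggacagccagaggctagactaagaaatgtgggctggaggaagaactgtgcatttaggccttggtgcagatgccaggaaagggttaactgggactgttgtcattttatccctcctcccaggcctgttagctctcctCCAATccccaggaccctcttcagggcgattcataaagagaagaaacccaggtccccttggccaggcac
The upstream window is 47.3% G or C and holds 1 TCF/LEF core, in the reverse form, and none of the other 4 motifs. The downstream window is 55.7% G or C and holds 1 CCAAT box and none of the others.

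The other collagen IX chains did not pass the test. Col9a3 was at 15.9, 12.2 and 9.36 TPM in the knockout libraries, against 5.52, 4.43 and 4.08 TPM in the controls. All knockouts lay above all controls, at 2.67 times the control mean, but the adjusted p was just over the threshold (log2 difference 1.23, SE 0.201, limma adjusted p = 0.0544). For Col9a3 the authors' deposited table lists 1.42 (adjusted p = 3.30e-08). Without knockout 3 the limma adjusted p for Col9a3 was 0.0231. Col9a2, the most abundant of the 3 chains, was at 44.3, 43.5 and 37.1 TPM in the knockout libraries, against 56.4, 50.5 and 47.5 TPM in the controls, with every knockout below every control (log2 difference -0.30, SE 0.0985, limma adjusted p = 0.288). Col9a1 therefore amounted to 0.122, 0.13 and 0.141 of Col9a2 in knockouts 1 to 3 and to 0.0381, 0.0255 and 0.0352 in controls 1 to 3, in TPM.

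**Figure D4:**
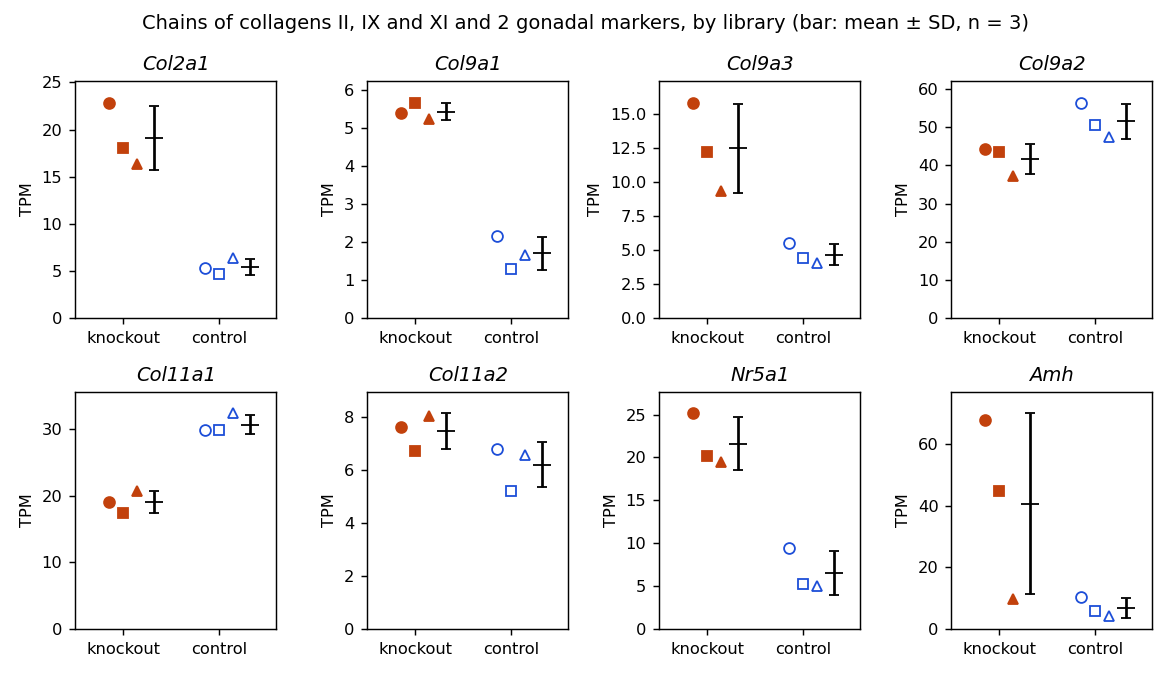
TPM (linear axes from 0) of the chains of collagens II, IX and XI and of the gonadal markers Nr5a1 and Amh in each library, knockouts left and controls right; bars show the mean ± SD of 3 libraries. Col2a1, Col9a1, Col9a3 and Nr5a1 separate upwards, Col9a2 and Col11a1 downwards, and Amh overlaps through knockout 3 and control 1.

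Markers of other cells were measured beside these chains. Of 9 chondrocyte markers 6 were measured: Acan, the cartilage proteoglycan, did not exceed 1 TPM in any library, at 0.582, 0.383 and 0.352 TPM in the knockout libraries, against 0.0963, 0.178 and 0.10 TPM in the controls. Matn4, a cartilage matrix protein, was at 0.925, 1.01 and 1.15 TPM in the knockout libraries, against 0.775, 0.304 and 0.337 TPM in the controls. Cnmd, the chondromodulin gene, was at 0.354, 0.646 and 1.94 TPM in the knockout libraries, against 0.837, 0.131 and 0.947 TPM in the controls. Hapln1, Sox5 and Sox6, which other tissues also express, made up most of the list's sum of 45.0, 49.2 and 46.9 TPM in knockouts and 43.7, 42.5 and 48.8 TPM in controls. Acan, Matn4 and Cnmd did not reach 1 TPM in 3 libraries and were not tested, and none of the 3 tested genes, Hapln1, Sox5 and Sox6, passed. Of the 3 tested, only Sox6 had all knockouts above all controls, where 8.14% of all tested genes did so. The untested Acan and Matn4 also had all knockouts above all controls, but such low genes are not among those behind that share. Sox9, the transcription factor that drives Col2a1 and Col9a1 in cartilage and acts in Sertoli cells, was at 38.2, 31.8 and 24.1 TPM in the knockout libraries, against 31.7, 32.7 and 32.2 TPM in the controls (log2 difference -0.059, SE 0.149, limma adjusted p = 0.921). In the gonadal list, Nr5a1, a regulator of steroid-producing cells, was at 25.1, 20.2 and 19.4 TPM in the knockout libraries, against 9.48, 5.2 and 4.97 TPM in the controls. Gata4, another regulator of the early gonad, was at 39.6, 41.2 and 33.2 TPM in the knockout libraries, against 17.0, 8.25 and 7.02 TPM in the controls. Both rose (limma adjusted p = 0.0281 for Nr5a1 and 0.0354 for Gata4). Amh, the Sertoli cell hormone gene, was at 67.8, 44.7 and 9.58 TPM in the knockout libraries, against 10.5, 5.87 and 4.33 TPM in the controls, and did not pass (adjusted p = 0.244). Knockout 3 had the lowest Amh, Nr5a1, Gata4, Col2a1, Col9a1 and Col9a3 of the knockouts. For Col9a1 the step was small, at 5.23 TPM against 5.38 and 5.66 TPM in knockouts 1 and 2. Star, alone of the measured gonadal genes, was highest in knockout 3, at 8.42 TPM against 7.53 and 7.73 TPM. In that library Nr5a1, Gata4, Col2a1, Col9a1 and Col9a3 lay above every control, and Amh lay below control 1. Whether gonadal tissue had a part in the collagen values was not tested.

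Col12a1, a FACIT of tendon and dense fascia, was at 15.4, 13.9 and 21.2 TPM in the knockout libraries, against 19.6, 21.3 and 28.1 TPM in the controls, overlapping through knockout 3 and control 1 (log2 difference -0.43, SE 0.182, limma adjusted p = 0.427); the authors' deposited table lists an adjusted p of 0.0441. Col16a1, a FACIT that joins fibrils and microfibrils, was at 61.0, 84.2 and 91.7 TPM in the knockout libraries, against 77.1, 85.0 and 78.5 TPM in the controls (log2 difference -0.041, SE 0.139, limma adjusted p = 0.943), and knockout 1 stood below all other libraries. Col14a1, a regulator of fibril growth, was at 60.8, 64.7 and 82.0 TPM in the knockout libraries, against 69.0, 76.1 and 78.1 TPM in the controls (log2 difference -0.11, SE 0.114, limma adjusted p = 0.777). Col20a1 averaged 4.9 ± 0.809 TPM in knockouts and 5.08 ± 0.81 TPM in controls. Col22a1, a FACIT of tissue junctions, averaged 1.49 ± 0.169 TPM in knockouts and 1.55 ± 0.486 TPM in controls. Both overlapped between groups.

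Collagen VI is built from 1 chain each of Col6a1, Col6a2 and a longer chain. Col6a1 was at 261, 314 and 352 TPM in the knockout libraries, against 396, 417 and 394 TPM in the controls, with no overlap (log2 difference -0.39, SE 0.103, limma adjusted p = 0.19); its log2 fold change is -0.37 (adjusted p = 0.00401) in the authors' deposited table. Col6a2, its neighbour, was at 157, 189.8 and 198 TPM in the knockout libraries, against 203, 212 and 208 TPM in the controls (log2 difference -0.20, SE 0.0888, limma adjusted p = 0.451). Col6a3, the usual longer chain, was at 56.7, 59.4 and 71.9 TPM in the knockout libraries, against 75.2, 76.2 and 74.9 TPM in the controls (log2 difference -0.27, SE 0.0931, limma adjusted p = 0.314). All 3 genes had their lowest value in knockout 1 and no overlap between groups, and none passed. Of all tested genes, 8.49% had every knockout below every control. Without knockout 3 the limma adjusted p was 0.0441 for Col6a3 and 0.0498 for Col6a1. Col6a6, a longer chain that can take the place of Col6a3, averaged 10.5 ± 1.81 TPM in knockouts and 12.2 ± 0.634 TPM in controls. Its neighbours Col6a4 and Col6a5 stayed near or under 1 TPM, at 0.714, 1.3 and 0.588 TPM in the knockout libraries, against 1.0, 0.88 and 0.936 TPM in the controls for Col6a4, and 0.556, 0.736 and 0.712 TPM in the knockout libraries, against 0.679, 0.516 and 0.345 TPM in the controls for Col6a5.

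Among the remaining types, none of 10 tested genes passed. Col15a1, a multiplexin of the zone between vessels or muscle and their matrix, was at 43.4, 46.5 and 43.4 TPM in the knockout libraries, against 61.1, 56.1 and 60.8 TPM in the controls. The groups were well apart relative to their spread (log2 difference -0.41, SE 0.0721, limma adjusted p = 0.0658); its adjusted p is 0.000264 in the authors' deposited table. Col26a1, a collagen known from developing testis and ovary in the mouse, was at 103, 105 and 100.5 TPM in the knockout libraries, against 127, 128 and 127 TPM in the controls. The control libraries were nearly identical, and the ratio of means was 0.808 (log2 difference -0.30, SE 0.0554, limma adjusted p = 0.0746). The authors' deposited table lists adjusted p = 0.00168 for it. Col18a1, the multiplexin of epithelial basement membranes that contains endostatin, was at 255, 226 and 209 TPM in the knockout libraries, against 227, 231 and 257 TPM in the controls, and overlapped (log2 difference -0.056, SE 0.0855, limma adjusted p = 0.862). Col7a1, the anchoring fibril chain under stratified epithelia, was at 15.5, 15.6 and 16.2 TPM in the knockout libraries, against 17.4, 20.8 and 24.7 TPM in the controls. Its knockout values were tightly grouped below all controls, but it did not pass (log2 difference -0.38, SE 0.132, limma adjusted p = 0.32), while 0.0149 is its adjusted p in the authors' deposited table.

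Col8a2, a network-forming chain of the corneal endothelium, averaged 44.8 ± 10.1 TPM in knockouts and 55.1 ± 2.63 TPM in controls, with knockout 3 inside the control range (log2 difference -0.31, SE 0.141, limma adjusted p = 0.461; adjusted p = 0.0441 without knockout 3). Its partner Col8a1 was near 1 TPM, at 1.19, 1.82 and 1.16 TPM in the knockout libraries, against 0.866, 1.11 and 0.605 TPM in the controls, which rests on at least 43, 60 and 38 reads in knockouts and 33, 36 and 19 reads in controls. Of the transmembrane collagens, Col13a1 averaged 29.6 ± 3.79 TPM in knockouts and 33.4 ± 1.26 TPM in controls. Col23a1 averaged 26.0 ± 2.94 TPM in knockouts and 26.8 ± 3.33 TPM in controls. Col25a1, which motor axons need to enter muscle, was at 12.4, 11.5 and 5.13 TPM in the knockout libraries, against 14.1, 10.6 and 11.0 TPM in the controls, so knockout 3 was below every other library by over 2-fold. Col17a1, the hemidesmosome collagen of skin, was at 0.543, 0.456 and 1.11 TPM in the knockout libraries, against 1.56, 0.524 and 1.12 TPM in the controls. It lay just above 1 TPM on average in controls and just below it in knockouts; Col6a4, just under 1 TPM in both groups, was not tested, nor were Col5a3, Col4a3 and Col6a5.

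Ratios between chains set aside whatever both chains share in a library. For 8 ratios, log2 values were compared by an exact two-sided permutation test, in which 3 against 3 cannot go below p = 0.1. Col4a1/Col4a2 was 1.58, 1.65 and 1.56 in knockouts and 1.65, 1.53 and 1.5 in controls (log2 ratio difference 0.037; exact permutation p = 0.5, adjusted p = 0.57). Col4a5/Col4a6, whose start sites lie 1343 bases apart, was 3.45, 3.19 and 3.48 in knockouts and 3.11, 3.29 and 3.3 in controls (log2 ratio difference 0.060; exact permutation p = 0.3, adjusted p = 0.48). Both pairs thus kept nearly 1 proportion in all 6 embryos. Col6a3/Col6a2 was also steady, at 0.362, 0.313 and 0.363 in knockouts and 0.37, 0.36 and 0.36 in controls.

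Other ratios separated the groups without reaching the threshold. Col1a1/Col1a2, which is 2 to 1 in the protein of collagen I, was 1.7, 1.8 and 1.57 in knockouts and 1.49, 1.44 and 1.52 in controls (log2 ratio difference 0.19; exact permutation p = 0.1, adjusted p = 0.2). Col3a1/Col1a1 was 1.03, 0.964 and 1.21 in knockouts and 1.38, 1.39 and 1.32 in controls, so Col3a1 exceeded Col1a1 more clearly in controls (log2 ratio difference -0.36; exact permutation p = 0.1, adjusted p = 0.2). Col6a1/Col6a2 was 1.66, 1.66 and 1.78 in knockouts and 1.95, 1.97 and 1.89 in controls (log2 ratio difference -0.19; exact permutation p = 0.1, adjusted p = 0.2). Col9a1/Col9a2 had the largest shift (log2 ratio difference 2.01; exact permutation p = 0.1, adjusted p = 0.2). Col5a1/Col5a2 overlapped, at 1.66, 1.72 and 1.23 in knockouts and 1.31, 1.39 and 1.35 in controls. Col9a1 had passed the test, so its ratio repeats that difference.

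**Figure D5:**
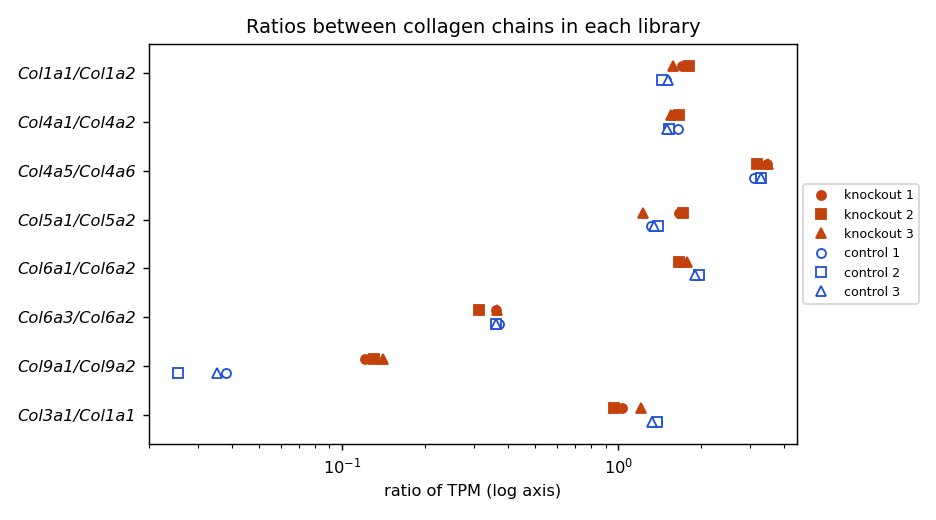
Ratios of TPM between collagen chains in each library (log axis), knockouts filled and above, controls open and below. Col4a1/Col4a2 and Col4a5/Col4a6 overlap between groups; Col1a1/Col1a2 and Col9a1/Col9a2 lie higher and Col6a1/Col6a2 and Col3a1/Col1a1 lower in knockouts, each at the smallest exact p of 0.1.

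Of 52 tested genes that modify, secrete, process, bind or sense collagens, 0 were higher and 0 lower by limma (3 higher and 10 lower at an unadjusted p under 0.05, against 5.35% and 5.92% of all tested genes). The authors' deposited table calls 1 of these 52 genes higher and 6 lower. Among all genes with an adjusted p there, 1.38% were higher and 2.17% lower. The median log2 difference of the 52 genes was -0.069, against -0.0075 over all tested genes. Among 18 modifying and folding enzymes, Serpinh1, the collagen chaperone HSP47, averaged 1762 ± 126 TPM in knockouts and 1696 ± 44.6 TPM in controls. P4hb, a subunit of prolyl hydroxylase, averaged 917 ± 56.3 TPM in knockouts and 961 ± 18.5 TPM in controls. Plod1, a lysyl hydroxylase, was at 43.8, 55.7 and 54.6 TPM in the knockout libraries, against 78.0, 85.3 and 75.4 TPM in the controls (log2 difference -0.63, SE 0.103, limma adjusted p = 0.0544). P4ha1, the main catalytic subunit of prolyl hydroxylase, was at 116, 122 and 127 TPM in the knockout libraries, against 154, 162 and 154 TPM in the controls (log2 difference -0.36, SE 0.0604, limma adjusted p = 0.0569). Its relative P4ha3 was at 19.3, 19.9 and 12.0 TPM in the knockout libraries, against 9.34, 8.19 and 6.72 TPM in the controls, also without overlap but higher (log2 difference 0.97, SE 0.205, limma adjusted p = 0.115). In the authors' deposited table the adjusted p is 1.19e-07 for Plod1, 0.000169 for P4ha1 and 5.67e-05 for P4ha3. The other related genes called there, all lower, are Adamts2 (1.26e-05), Ddr2 (0.00602), Colgalt1 (0.00765) and Bgn (0.0437).

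In the other lists, Sec23a, a coat protein of secretory vesicles, averaged 107 ± 6.46 TPM in knockouts and 124 ± 2.11 TPM in controls. Creb3l2, a transcription factor of the secretory pathway, averaged 107 ± 6.09 TPM in knockouts and 119 ± 11.9 TPM in controls. Bmp1, which removes the C-terminal propeptide, averaged 159 ± 8.8 TPM in knockouts and 162 ± 9.44 TPM in controls. Its enhancer Pcolce averaged 119 ± 4.07 TPM in knockouts and 133 ± 1.22 TPM in controls. Of the proteoglycans that bind fibrils, Bgn averaged 138 ± 17.1 TPM in knockouts and 169 ± 5.61 TPM in controls and Lum, the most abundant, 268 ± 99.2 TPM in knockouts and 228 ± 7.37 TPM in controls. Lum ran from 176 to 373 TPM among knockouts, a wider range than in controls. The integrin subunit Itgb1 averaged 412 ± 57.8 TPM in knockouts and 452 ± 21.8 TPM in controls, and Ddr1, a collagen-binding receptor kinase, 102 ± 8.22 TPM in knockouts and 99.7 ± 4.67 TPM in controls. Pxdn, the peroxidase that cross-links collagen IV, averaged 153 ± 18.1 TPM in knockouts and 178 ± 16.3 TPM in controls. Their adjusted p ran from 0.256 to 0.917 (limma, over all tested genes).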

How the data were processed

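RNA of 6 male mesonephroi was sequenced as paired reads of 150 bases after poly(A) selection, per the labels' protocols. The submitters' processing notes name build GRCm39 and DESeq2. Aligner, counter, annotation, strand setting and filters were not given in the sources used here. TPM per embryo and group means were deposited by the authors, per the file headers, with their own log2 fold change, p-value and adjusted p-value. The file holds no positions. Samples were grouped by title; p-values measure the spread between these 6 libraries, whose litters are not given.

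From the deposited TPM, limma 3.58.1 (R 4.3.3) compared the groups on log2(TPM + 1), with genotype as the only term and the variance prior fitted as a trend, over the 17577 genes that reached 1 TPM in 3 or more libraries, with Benjamini-Hochberg adjustment and a threshold of 0.05. Alternatives were another scaling, pseudocount, filter, variance model, limma-voom on recovered reads, a replicate block and each library left out. A difference on this scale understates the change of low genes, and SEs are moderated. The steps were tested on simulated reads. Whole reads were recovered from the ratios of TPM between libraries for 20033 of 20033 genes within 0.02 reads; a factor shared by all libraries of a gene is lost, so they are lower bounds. In a check on 1000 genes, 98.7% of those as deposited gave whole reads, against 0.1% of the same genes with randomly altered values.

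The members, gene lists and rules were chosen with earlier results of these data known. Named are all collagen genes, with values per library for those past the test, those called by the authors and the 3 most abundant per class, and the 2 most abundant genes of each related list. Sox9, P4ha1, P4ha3, Plod1 and further genes with values per library, and also Adamts2, Ddr2 and Colgalt1, were chosen after their values were seen. Col10a1, Col19a1 and Col28a1 had no row in the deposited table and so could not be analysed. The mouse numbers of the 2 groups did not pair the samples (correlations of deviations from the group means -0.064, 0.050 and -0.051).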

Additional observations from a re-analysis of the deposited data

How the results depend on the processing

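Of 547 values of single collagen genes under 15 alternatives, 507 kept their direction and their side of the threshold, 16 lost the call, 10 gained it and 14 changed sign, the last in 7 genes that never passed. The count of 1 lower collagen gene became 0 without the mean-variance trend and 0 with the replicate block, 3 with limma-voom on recovered reads, and ran from 0 to 6 over omissions of single libraries. The count of 2 higher became 1 with a pseudocount of 0.1 and no filter, 0 with the replicate block, and 3 both with a filter at 5 TPM and with limma-voom, Col9a3 being the gene gained, and ran from 0 to 3 over omissions. Of all tested genes, 0.0998% were called higher with that pseudocount and no filter, 0.0228% with the block, 0.264% with the 5 TPM filter and 0.54% with limma-voom; 0.131% were called lower without the trend, 0.074% with the block and 0.99% with limma-voom. With the block on mouse number, which only shares a number, the adjusted p was 0.0506 for Col2a1, 0.112 for Col9a1 and 0.0987 for Col11a1. With limma-voom, Col15a1 (adjusted p = 0.0259), Col26a1 and Col9a3 (0.010) also passed; all genes called were then 269, against 78. For the related genes, the count of 0 lower became 2 with a filter at 5 TPM and 3 with limma-voom and ran from 0 to 4 over omissions. With that filter 0.56% of all tested genes were called lower. The count of 0 higher became 1 with limma-voom and ran from 0 to 1 over omissions. The 4 lower and 1 higher came without knockout 3, where 0.839% of all tested genes were called lower and 0.561% higher. The median log2 difference of collagen genes ran from -0.21 to -0.11 over omissions and the ratio of sums from 0.860 to 0.911. Sign changes over omissions of 1 library gave log2 differences of -0.16 to 0.13 for Col16a1, -0.13 to 0.0086 for Col18a1, -0.020 to 0.10 for Col1a1, -0.16 to 0.059 for Col20a1, -0.17 to 0.11 for Col22a1, -0.12 to 0.055 for Col23a1 and -0.55 to 0.015 for Col25a1; Col22a1 was 0.0028 with limma-voom. The cause of these changes was not tested, except that fewer libraries enter each omission. Scaling moved the median of all genes by less than 0.1. The 8 chain ratios cannot reach an exact p under 0.1 with 3 libraries a group. Depth limits the low chains: Col8a1 rests on 19 to 60 reads a library.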

Other observations

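Lists of other cell types gave these sums, with no explanation weighed. Smooth muscle markers summed to 82.1, 92.1 and 117 TPM in knockouts and 75.2, 68.8 and 59.8 TPM in controls. These sums did not overlap, and 0 of 5 tested genes passed limma. Skeletal muscle markers summed to 5.3, 24.1 and 52.2 TPM in knockouts and 3.09, 2.17 and 6.8 TPM in controls, with knockout 3, the library lowest in Col25a1, the highest. Neural crest and sympathetic markers summed to 37.3, 23.9 and 19.3 TPM in knockouts and 17.8, 20.2 and 20.9 TPM in controls. Bone markers summed to 18.2, 13.6 and 17.6 TPM in knockouts and 19.9, 15.4 and 15.1 TPM in controls.

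Macrophage markers summed to 66.7, 59.0 and 79.6 TPM in knockouts and 83.6, 81.6 and 62.8 TPM in controls. Coelomic epithelium markers summed to 286, 281 and 302 TPM in knockouts and 251, 275 and 266 TPM in controls, also without overlap. Germ cell markers summed to 43.5, 29.3 and 15.6 TPM in knockouts and 35.4, 10.6 and 10.9 TPM in controls. None of these lists, nor the 8 erythroid genes, had a member past limma's threshold, but only 1 of 5 skeletal muscle genes was tested. In the authors' deposited table, 2 of 6 smooth muscle and 3 of 5 skeletal muscle genes were higher. So were 2 of 5 neural crest and sympathetic genes and 1 of 5 coelomic genes, with 0 lower. The background there was 1.38% higher and 2.17% lower. Of 10 duct and tubule markers 0 were higher and 2 lower by limma, where 0.131% of all tested genes were called higher and 0.313% lower. The 2 were Lhx1, a transcription factor, at 10.3, 9.39 and 7.42 TPM in the knockout libraries, against 27.4, 22.6 and 21.9 TPM in the controls (log2 difference -1.32, SE 0.146, limma adjusted p = 0.0123), and Calb1, a calcium-binding protein, at 3.81, 6.0 and 4.83 TPM in the knockout libraries, against 15.8, 14.6 and 11.3 TPM in the controls (log2 difference -1.35, SE 0.186, limma adjusted p = 0.0281).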
